A study of Mus musculus with 13 samples.

Results

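YAP, its relative TAZ and their TEAD partners were described here through 10 genes, taken from the 33618 genes counted in parametrial white adipose tissue (pmWAT) by matching each gene symbol to its Ensembl identifier. The 10 are the coactivators Yap1 and Wwtr1 (the gene for TAZ), the DNA-binding partner Tead1, the kinase Lats2, the junction protein Amotl2, the LIM adaptor Ajuba, and 4 genes that YAP and TAZ are known to induce, Ccn1, Ccn2, Ankrd1 and Axl. Amotl2 and Lats2 are induced genes as well, and belong to the signature of YAP and TAZ targets described below. All 10 symbols matched a single identifier, and 9 passed the filter on low counts, Ankrd1 being the exception.

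The tissue came from female mice of 2 genotypes, 7 Lmna fl/fl controls and 6 Lmna iADKO, which are Lmna fl/fl mice that also carry Adipoq-CreERT2, and 1 mRNA library was made for each mouse. Every mouse, controls included, has floxed Lmna alleles and received tamoxifen at 50 mg/kg on 5 consecutive days at 12 to 14 weeks of age, and the tissue was taken 2 weeks later. The Adipoq promoter limits the Cre to adipocytes, so the other cells of the fat pad keep their Lmna, and since only the iADKO mice carry Cre, the presence of Cre and the deletion cannot be told apart. Lmna encodes lamin A and lamin C, filament proteins that line the inside of the nuclear envelope.

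In the Hippo pathway, the MST kinases and the LATS kinases phosphorylate YAP and TAZ, which then stay in the cytoplasm or are degraded. When the kinases are quiet, or when cells are stretched, spread or on a stiff matrix, YAP and TAZ enter the nucleus and switch on genes through TEAD factors. This control acts mainly on where the YAP and TAZ proteins are, so transcript levels of Yap1 and Wwtr1 do not measure their activity, and the levels of target genes are commonly read instead. In fat, YAP and TAZ are known for restraining adipocyte differentiation in progenitor cells.

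TEAD factors bind the 6-base sequence GGAATG, which reads CATTCC on the opposite strand. Both forms were searched in the 250 bases before the Ensembl canonical transcript start of each gene on GRCm39. Of the 9 listed genes whose window is reported, 6 held at least 1 copy, against 12.1% of 17965 protein-coding promoters searched in the same way. Amotl2 held 2 copies, whereas 0.952% of all promoters held 2 or more. Yap1, Wwtr1, Tead1, Ccn1 and Axl held 1 each, and no copy was found in the windows of Lats2, Ankrd1 and Ajuba. The windows below are those of Ccn1, a usual readout of YAP and TAZ, of Tead1 and Axl, which differed between genotypes, and of Yap1 itself. They are written 5′ to 3′ on the strand of the gene, with the motif in capitals, and overlap no annotated exon of their gene. The window of Amotl2, which did overlap an exon of a longer transcript, is not shown.

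Ccn1, chr3:145355739-145355988, minus strand: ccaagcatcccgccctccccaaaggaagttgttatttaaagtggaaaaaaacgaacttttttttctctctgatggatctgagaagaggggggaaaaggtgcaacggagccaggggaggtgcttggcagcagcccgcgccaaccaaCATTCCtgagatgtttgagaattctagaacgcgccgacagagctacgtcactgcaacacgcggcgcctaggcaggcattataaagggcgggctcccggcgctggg
Tead1, chr7:112278272-112278521, plus strand: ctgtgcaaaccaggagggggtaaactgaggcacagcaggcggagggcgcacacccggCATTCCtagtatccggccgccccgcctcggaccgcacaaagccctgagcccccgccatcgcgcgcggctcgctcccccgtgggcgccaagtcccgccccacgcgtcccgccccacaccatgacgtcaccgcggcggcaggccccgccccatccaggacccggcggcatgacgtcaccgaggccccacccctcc
Axl, chr7:25488330-25488579, minus strand: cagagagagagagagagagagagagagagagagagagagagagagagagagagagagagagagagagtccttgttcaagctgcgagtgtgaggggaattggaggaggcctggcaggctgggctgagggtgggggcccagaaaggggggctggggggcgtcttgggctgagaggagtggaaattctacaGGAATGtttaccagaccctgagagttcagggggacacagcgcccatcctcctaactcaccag
Yap1, chr9:8004662-8004911, minus strand: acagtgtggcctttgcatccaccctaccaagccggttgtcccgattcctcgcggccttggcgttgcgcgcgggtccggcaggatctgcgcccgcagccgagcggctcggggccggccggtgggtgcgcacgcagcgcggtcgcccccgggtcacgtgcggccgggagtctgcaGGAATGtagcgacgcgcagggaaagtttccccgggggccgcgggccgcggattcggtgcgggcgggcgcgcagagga

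In Ccn1 the copy began 105 bases before the start and lay on the opposite strand, as did the copy in Tead1 at 193 bases. The copies of Yap1 and Axl lay on the gene strand, at 77 and 62 bases. Which genes held the motif depended on the start that was used. In the RefSeq promoter windows of the GRCm38 build, 7 of the 8 listed genes with a window held it, among them Ajuba and Ankrd1 with 2 copies each, against 14.4% of 27025 genes, and Amotl2 held 1 copy in place of 2. A match describes the letters in these windows and does not show that TEAD binds there in fat.

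**Figure D1:**
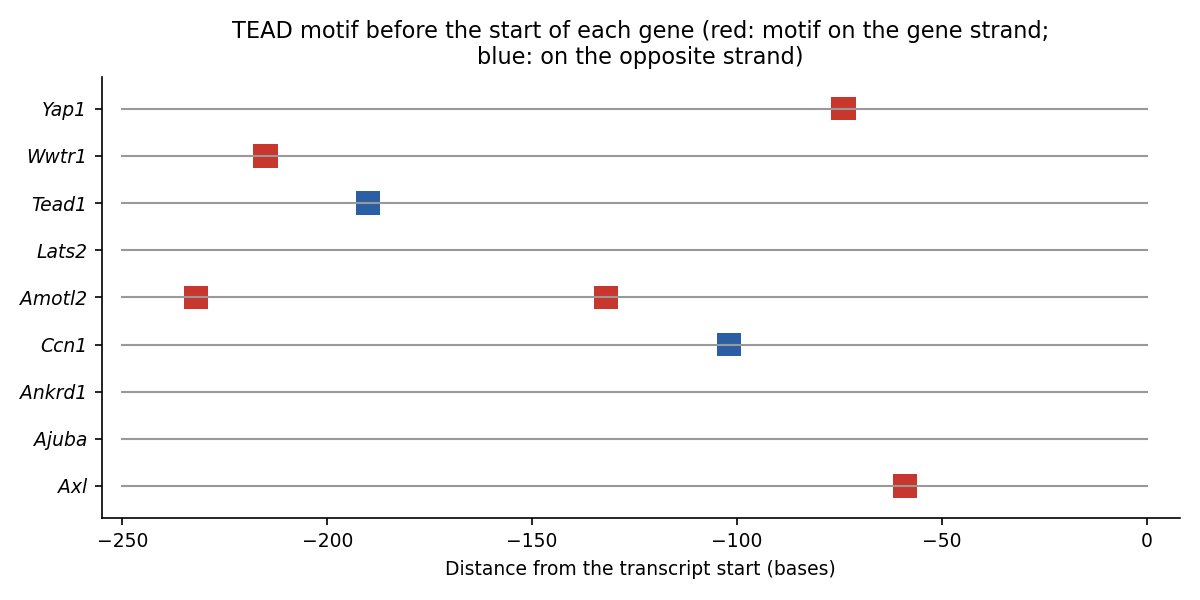
TEAD motif copies in the 250 bases before the canonical transcript start of 9 of the listed genes, with distance from the start in bases on the horizontal axis and 1 line per gene. Amotl2 has 2 copies, and Lats2, Ankrd1 and Ajuba have none in this window.

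Between 18854223 and 19776491 counts were assigned to genes in each library. Levels are given as normalised counts, CPM, for which each library is scaled to the same size by the TMM method. The TMM factors ran from 0.892 to 1.02 in fl/fl and from 1.05 to 1.10 in iADKO, without overlap. Compared with scaling by total counts alone, they lower the iADKO levels relative to fl/fl. No fit was run without a scaling of this kind. Lmna did not fall. Its mean was 84.7 ± 7.51 CPM in the 7 fl/fl libraries and 96.7 ± 11.5 CPM in the 6 libraries labelled iADKO (errors are SD), with a log2 fold change of 0.19 and an adjusted p of 0.0785 by edgeR's quasi-likelihood test. These are counts over the whole gene, so they include transcripts that lack the 2 floxed exons as well as transcripts from cells with no Cre, and they neither bear out nor contradict the labels. All 8 adipocyte markers were lower in iADKO, where their summed level ran from 9099 to 15105 CPM against 14979 to 21487 CPM in fl/fl. Of 9 macrophage markers, 7 were higher, with sums of 3139 to 5421 CPM against 1835 to 5344 CPM. No marker of either list was at 0 in any library, and in bulk tissue fewer cells of a type cannot be told apart from less RNA per cell. Replicate 5 of fl/fl and replicate 6 of iADKO lay nearest the other genotype in the adipocyte sums. Results for Tead1, Amotl2, Axl and the Hippo kinases and adaptors are therefore also given without each of them.

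Of the 9 listed genes tested, 3 passed the threshold of 0.05 on the adjusted p (33.3%), beside 30.5% of the 16753 genes tested. Axl was the 1 gene that rose (14.1% of all genes rose), and Tead1 and Amotl2 were the 2 that fell (16.3% of all genes fell). In no listed gene were the genotypes fully separated, beside 6.64% of all genes. The median log2 fold change of the 9 was 0.00086, and that of all genes was 0.03. The share called was near that of all genes, so the values below are given gene by gene.

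**Figure D2:**
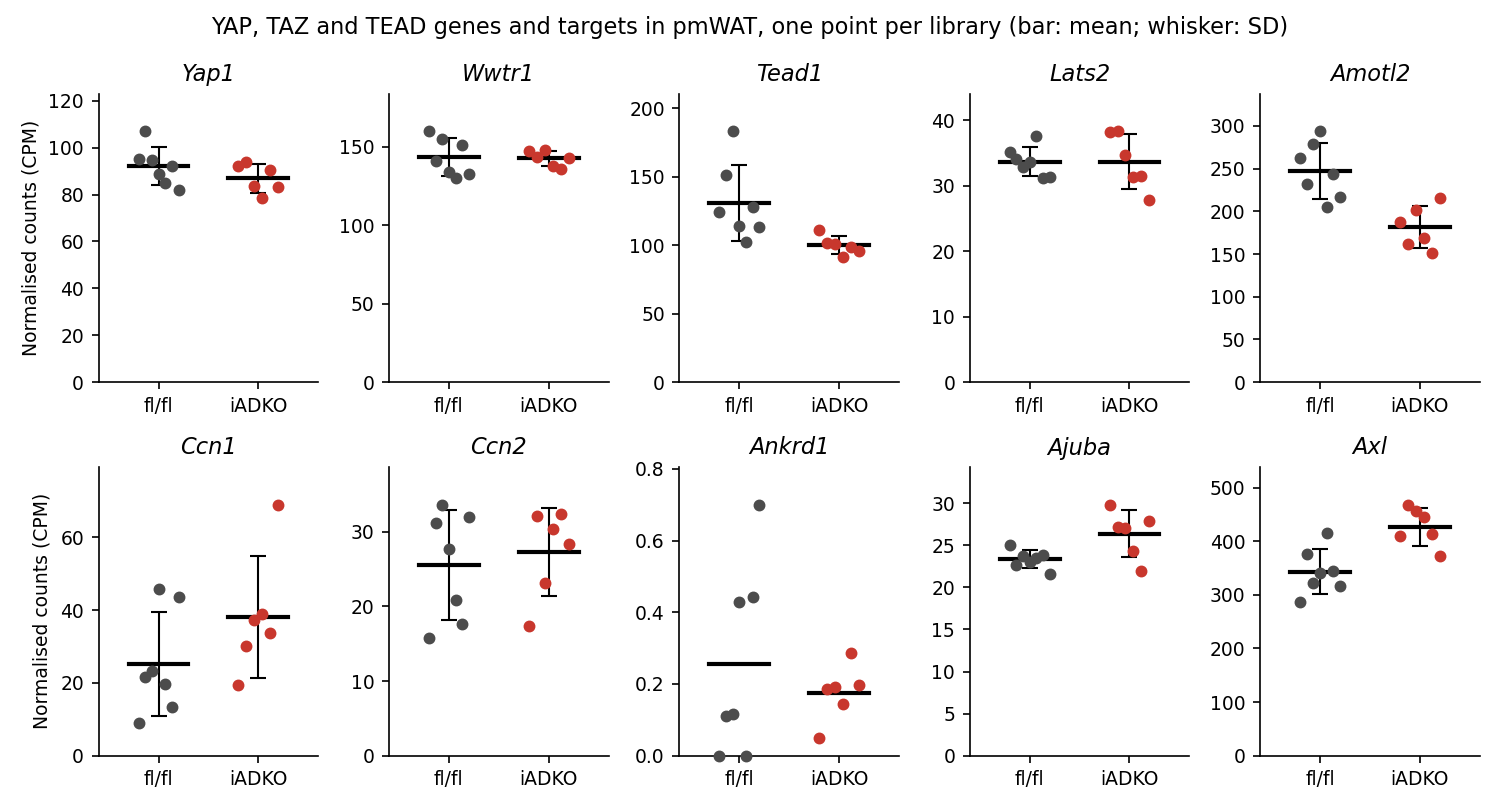
Normalised counts (CPM, linear axis from 0, a separate scale for each gene) of the 10 genes, 1 point per library, with the 7 fl/fl libraries in grey and the 6 iADKO libraries in red. Horizontal bars are means and whiskers the SD, which is not drawn for Ankrd1. Amotl2 and Tead1 are lower and Axl is higher in iADKO with a few points shared between genotypes, while the points of Yap1, Wwtr1, Lats2 and Ccn2 cover each other.

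Neither coactivator passed the test. Yap1 ran from 82.1 to 107 CPM in fl/fl with a median of 92.1, and from 78.4 to 93.8 CPM in iADKO with a median of 87.1. Its log2 fold change was -0.08 (SE 0.064, 95% interval -0.22 to 0.05, adjusted p = 0.338), and -0.04 without fl/fl replicate 2. Wwtr1 ran from 130 to 160 CPM in fl/fl with a median of 141, and from 136 to 148 CPM in iADKO with a median of 143. After scaling, all 6 iADKO libraries lay inside the fl/fl range of Wwtr1, and the log2 fold change was -0.0064 (SE 0.057, 95% interval -0.13 to 0.12, adjusted p = 0.941). Before scaling, the Wwtr1 counts ran from 2456 to 2783 in fl/fl and from 2846 to 3080 in iADKO, without overlap. The ratio of Wwtr1 to Yap1, each per kilobase of its canonical transcript, had a median of 1.44 in fl/fl and 1.48 in iADKO, with overlapping ranges of 1.17 to 1.50 and 1.34 to 1.58. With genotype means subtracted, the log2 level of Wwtr1 over the 13 libraries had a Pearson r of 0.67 with the adipocyte markers. It had an r of -0.68 with the macrophage markers and -0.85 with the T cell markers. Yap1 had an r of 0.18 with the adipocyte markers, -0.42 with the macrophage markers and -0.44 with the T cell markers. These values were picked from many pairs of gene and marker list and are a description. Of 5 T cell markers, 2 rose, with sums of 14.0 to 24.9 CPM in fl/fl and 26.7 to 30.7 CPM in iADKO.

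Tead1, the TEAD factor with the highest level per length in this tissue, fell. The gene lies on the plus strand at chr7:112278522-112506014 (GRCm39), and its canonical transcript has 14 exons. Its level ran from 102 to 183 CPM in fl/fl with a median of 124, and from 91.5 to 111 CPM in iADKO with a median of 99.9. Of the 6 iADKO libraries 5 lay below every fl/fl library, and the exception, replicate 1, overlapped only fl/fl replicate 5. The log2 fold change was -0.39 (SE 0.12, 95% interval -0.64 to -0.14, adjusted p = 0.0204), a ratio of means of 0.763. The fl/fl mice were uneven, with a coefficient of variation of 21.2% against 6.57% in iADKO, and replicate 3 stood highest. Without that library the log2 fold change was -0.29 and the adjusted p 0.0237. Without fl/fl replicate 5 it was -0.44, and without iADKO replicate 6 it was -0.38. Within the 2 runs of nearby library numbers that hold both genotypes it was -0.20 and -0.51. With genotype means subtracted, Tead1 had an r of 0.39 with the adipocyte markers, -0.56 with the macrophage markers and -0.68 with the T cell markers over the 13 libraries, and the part of cell composition in its lower level was not tested. Tead1 made up 45.7% to 58.6% of the summed level per kilobase of the 4 TEAD genes in fl/fl, with a median of 53.1%, and 42.2% to 48.5% in iADKO, with a median of 43.9%.

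The remaining TEAD genes did not pass the test. The mean of Tead3 was 16.6 ± 1.22 CPM in fl/fl (SD, n = 7) against 18.3 ± 2.25 CPM in iADKO (SD, n = 6), a log2 fold change of 0.14 (adjusted p = 0.198). That of Tead4 was 6.40 ± 0.915 against 5.25 ± 0.637 CPM (log2 fold change -0.28, adjusted p = 0.0746). The vestigial-like genes encode cofactors that bind TEAD in place of YAP. Vgll3 differed by 0.28 on the log2 scale (adjusted p = 0.0518), and Vgll4, which is known to oppose YAP, by -0.02 (adjusted p = 0.873). In the list of TEAD and VGLL factors, 0 genes rose and 1 of 6 tested fell, beside 14.1% and 16.3% of all genes. The gene that fell was Tead1, and Vgll2 was under the filter. Without fl/fl replicate 5, 3 genes of this list passed, beside 6604 of 16638 genes tested. Without iADKO replicate 4 or 5 it was 2, beside 4100 of 16907 and 4145 of 16832.

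Amotl2 fell, and was the listed gene with the smallest adjusted p. It encodes an angiomotin-like protein that holds YAP at cell junctions and is itself induced by YAP, and lies on the plus strand at chr9:102593836-102610617 with 10 exons in its canonical transcript. Its level ran from 205 to 294 CPM in fl/fl with a median of 244, and from 152 to 216 CPM in iADKO with a median of 178. Again 5 of 6 iADKO libraries lay below every fl/fl library, and the groups met only through iADKO replicate 6 and fl/fl replicate 5. The log2 fold change was -0.45 (SE 0.10, 95% interval -0.66 to -0.23, adjusted p = 0.00498), a ratio of means of 0.733. Leaving out fl/fl replicate 5 gave -0.48 and leaving out iADKO replicate 6 gave -0.50, each with an adjusted p of at most 0.00194. Amotl2 moved with cell type markers. Over the 13 libraries, with the genotype means subtracted, its log2 level had a Pearson r of 0.79 with the adipocyte markers, 0.83 with the endothelial markers and -0.73 with the macrophage markers. Of 8 endothelial markers, 2 fell and 0 rose, with sums of 959 to 1340 CPM in fl/fl and 1003 to 1181 CPM in iADKO. These r values come from the same libraries and are given as a description, and the part of cell composition in the lower Amotl2 level was not tested.

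Lats2 and Ajuba act on the same step, Lats2 as the kinase that phosphorylates YAP and TAZ and Ajuba as an adaptor that binds LATS kinases and restrains them. Lats2 ran from 31.2 to 37.6 CPM in fl/fl and from 27.8 to 38.3 CPM in iADKO, with medians of 33.6 and 33.1. Its log2 fold change was 0.00086 (SE 0.076, 95% interval -0.16 to 0.16, adjusted p = 0.994). The iADKO mice were the more spread, with 2 above and 1 below every fl/fl library. Ajuba ran from 21.6 to 25.0 CPM in fl/fl with a median of 23.4, and from 22.0 to 29.8 CPM in iADKO with a median of 27.1. In Ajuba 4 iADKO libraries lay above every fl/fl library and the other two inside their range. The log2 fold change of Ajuba was 0.18 (SE 0.067, 95% interval 0.03 to 0.32), and its adjusted p of 0.0578 missed the threshold. Without iADKO replicate 5, the lowest of its group, Ajuba passed, with a log2 fold change of 0.23 and an adjusted p of 0.0136.

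Among the induced genes, Axl rose, whereas Amotl2 fell and Lats2 did not pass, as given above. Axl is a receptor tyrosine kinase for Gas6 that is carried by macrophages and stromal cells, among others, and lies on the minus strand at chr7:25456535-25488329 with 20 exons in its canonical transcript. Its level ran from 286 to 416 CPM in fl/fl with a median of 341, and from 373 to 468 CPM in iADKO with a median of 428. Of the fl/fl libraries 5 lay below every iADKO library, and fl/fl replicate 5 stood at 416 CPM, inside the iADKO range. The log2 fold change was 0.32 (SE 0.085, 95% interval 0.13 to 0.50, adjusted p = 0.0128), a ratio of means of 1.24. Without fl/fl replicate 5 it was 0.37, and without iADKO replicate 6, the lowest iADKO library, it was 0.35. With the number series of the libraries as a block (series are runs of nearby numbers in the library names), the log2 fold change was 0.28 and the adjusted p 0.117. Within the 2 series that hold both genotypes it was 0.11 and 0.43. With genotype means subtracted, Axl had an r of 0.84 with the adipose progenitor markers, 0.64 with the macrophage markers and -0.77 with the adipocyte markers over the 13 libraries. None of the 8 progenitor markers passed the test between genotypes, with sums of 5686 to 8964 CPM in fl/fl and 5140 to 8573 CPM in iADKO, and their part in the Axl difference was not tested.

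Ccn1 and Ccn2, the matricellular proteins also known as CYR61 and CTGF, are the targets most often used as a readout of YAP. Ccn1 ran from 8.97 to 45.8 CPM in fl/fl with a median of 21.6, and from 19.4 to 68.9 CPM in iADKO with a median of 35.5. The highest value was that of iADKO replicate 6 and the lowest that of fl/fl replicate 1. The coefficient of variation was 56.5% in fl/fl and 43.7% in iADKO, the widest of the tested listed genes, and the log2 fold change of 0.60 (SE 0.38, 95% interval -0.23 to 1.42) had an adjusted p of 0.254. Without iADKO replicate 6 it was 0.34 (adjusted p = 0.511), and without fl/fl replicate 4 it was 0.81 (adjusted p = 0.128). The interval holds both no change and a rise of more than 2-fold. Ccn2 ran from 15.7 to 33.6 CPM in fl/fl with a median of 27.7, and from 17.4 to 32.4 CPM in iADKO with a median of 29.3. Its log2 fold change was 0.10 (SE 0.20, 95% interval -0.33 to 0.53, adjusted p = 0.739). It was 0.0070 without fl/fl replicate 1 and 0.20 without iADKO replicate 1, and within the 2 number series that hold both genotypes it was 0.29 and -0.11, in opposite directions.

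The CCN pair varied together from mouse to mouse. With genotype means subtracted, the log2 levels of Ccn1 and Ccn2 had a Pearson r of 0.71 over the 13 libraries, the highest of any pair of listed genes. Tead1 had an r of 0.65 with Yap1 and 0.62 with Wwtr1, and Yap1 had an r of 0.43 with Wwtr1. Ccn1, in contrast, had an r of -0.62 with Wwtr1. Each point is a library whose genes share their depth and cell makeup, so these values are a description.

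Ankrd1, a nuclear ankyrin repeat protein best known from stretched muscle, was close to the limit of detection. Across the 7 fl/fl libraries 33 counts fell on it, and across the 6 iADKO libraries 22. In fl/fl it ran from 0 to 0.70 CPM with a median of 0.12, and in iADKO from 0.05 to 0.29 CPM with a median of 0.19. Both libraries with 0 counts were fl/fl, replicates 1 and 5, where a count of 0 allows a level of up to 0.172 and 0.152 CPM for counting error alone. The fl/fl libraries ranged from 0 to 13 counts, and Ankrd1 was not tested in the main fit. In the alternative quasi-likelihood fit with no filter on low counts, its log2 fold change was -0.55 (SE 0.66, adjusted p = 0.631).

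Ordered by level per kilobase of canonical transcript in fl/fl, Axl came first with 73.9 ± 9.12 CPM per kb (SD, n = 7) and Amotl2 next with 57.2 ± 7.49. Wwtr1 followed with 30.5 ± 2.55, Yap1 with 22.0 ± 1.95, Tead1 with 13.1 ± 2.79 and Ccn1 with 12.4 ± 7.00. Ccn2 with 9.36 ± 2.69, Ajuba with 6.86 ± 0.316, Lats2 with 6.13 ± 0.408 and Ankrd1 with 0.127 ± 0.133 closed the order. The ranges of Axl and Amotl2 overlapped, as did those of each neighbouring pair from Tead1 to Lats2, whereas Amotl2 and Wwtr1, Wwtr1 and Yap1, Yap1 and Tead1, and Lats2 and Ankrd1 were separated. In iADKO, Ccn1 came before Tead1 and the order was otherwise the same. Counting every annotated exon in the length instead moved Ccn1 from the 6th to the 3rd place in fl/fl.

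**Figure D3:**
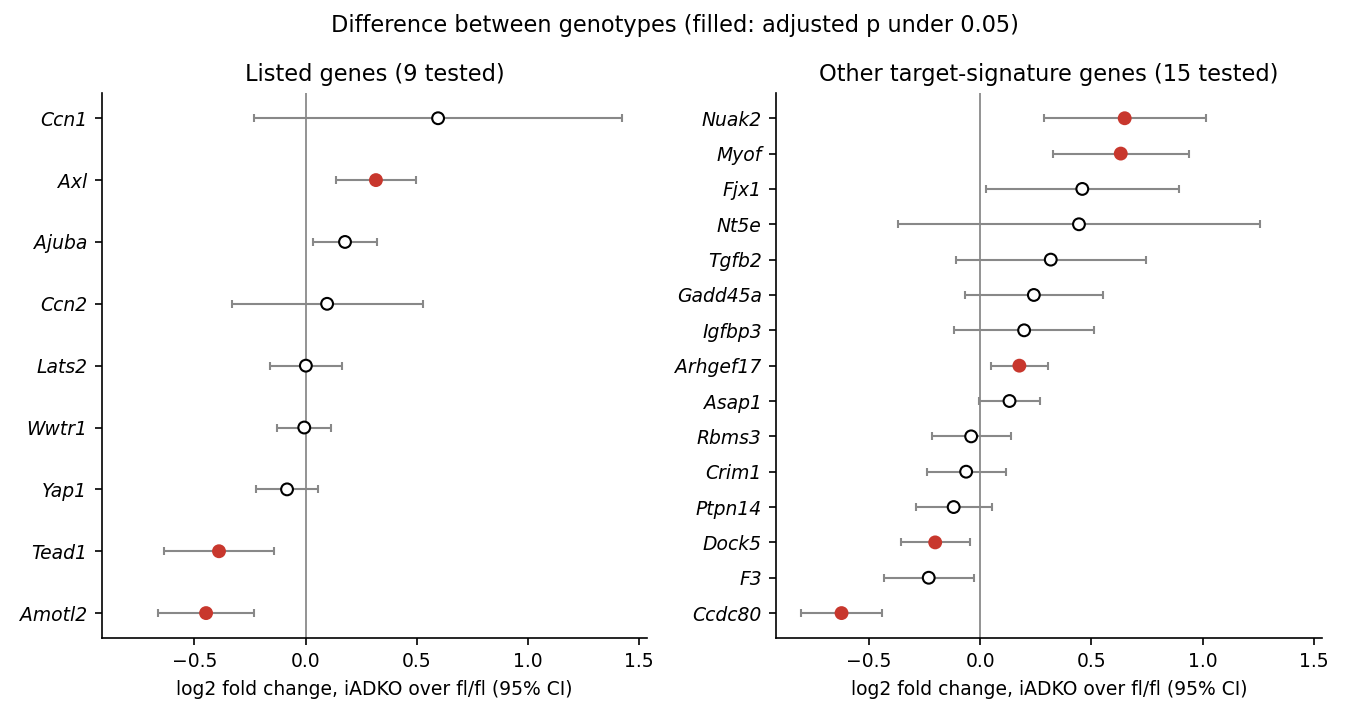
Log2 fold change of iADKO over fl/fl with its 95% confidence interval for the 9 listed genes tested (left) and for the 15 other tested genes of the target signature (right), with genes past an adjusted p of 0.05 filled. Axl lies to the right of 0 and Tead1 and Amotl2 to the left, and among the other targets Nuak2, Myof and Arhgef17 lie to the right and Dock5 and Ccdc80 to the left.

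The wider set of 22 genes used as a signature of YAP and TAZ activity in cancer cells was called at a share near that of all genes. Of the 20 tested, 4 rose and 3 fell (35.0%, beside 30.5% of all genes), with a median log2 fold change of 0.15, while Ankrd1 and Foxf2 were under the filter. With the number series as a block, 2 of the 20 passed, beside 1986 of the 16753 genes tested. Of the 15 that are not among the 10 listed genes, 3 rose and 2 fell. Myof, a membrane repair protein, rose by a log2 fold change of 0.63 (adjusted p = 0.0054), from 148 ± 40.9 CPM (SD, n = 7) to 229 ± 17.5 CPM (SD, n = 6). Nuak2, a kinase related to AMPK, rose by 0.65 (adjusted p = 0.0112), and Arhgef17, a guanine nucleotide exchange factor, by 0.18 (adjusted p = 0.0393). Ccdc80, a secreted matrix protein that adipose tissue makes in quantity, fell by 0.62 on the log2 scale (adjusted p = 0.00034), from 958 ± 112 CPM (SD, n = 7) to 622 ± 41.0 CPM (SD, n = 6), and its genotypes were fully separated. Dock5, which activates Rac, fell (log2 fold change -0.20, adjusted p = 0.0474). Of the 21 promoters of this set that are reported, 5 held the TEAD motif, beside 12.1% of all promoters searched. Those other than Amotl2, Ccn1 and Axl were Nuak2 and Ptpn14, with 2 copies each. In the RefSeq windows, 6 of the 15 signature genes with a window held it, beside 14.4% of all genes there.

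The share called was also near that of all genes among the kinases and adaptors upstream. Of 18 tested, 4 rose and 2 fell (33.3%, beside 30.5% of all genes), with a median log2 fold change of 0.02. Nf2, the gene for merlin, a membrane scaffold that recruits LATS kinases, fell from 131 ± 10.2 CPM (SD, n = 7) to 105 ± 4.97 CPM (SD, n = 6), with all 6 iADKO libraries below every fl/fl library and a log2 fold change of -0.31 (adjusted p = 0.00155). Wwc2, a relative of the LATS scaffold KIBRA, fell (log2 fold change -0.26, adjusted p = 0.0202). Rassf1, an adaptor of the MST kinases, rose by 0.41 (adjusted p = 0.00267). The upstream kinase genes Taok3 and Map4k4 rose by 0.51 (adjusted p = 0.00392) and 0.22 (adjusted p = 0.0121). Stk4, the gene for MST1, rose by 0.18 (adjusted p = 0.0470). Without fl/fl replicate 5, 8 of the 18 passed, beside 6604 of 16638 genes tested. Without iADKO replicate 6, 8 did as well, beside 5737 of 16879. With the number series of the libraries as a block 2 did, beside 1986 of 16753.

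Among 14 cytoplasmic regulators, 1 rose and 2 fell (21.4%, beside 30.5% of all genes), with a median of 0.0022. Amotl1, the paralog of Amotl2, fell from 331 ± 59.2 CPM (SD, n = 7) to 219 ± 11.2 CPM (SD, n = 6) without overlap, by a log2 fold change of -0.60 (adjusted p = 0.00128). Both angiomotin-like genes were lower in the libraries labelled iADKO, whereas Amot, the gene for angiomotin itself, did not pass (log2 fold change 0.08, adjusted p = 0.631). Ywhaz, a 14-3-3 protein of the kind that retains phosphorylated YAP in the cytoplasm, rose by 0.26 (adjusted p = 0.00325), also without overlap. Neither Wtip, a LIM protein of the Ajuba family (log2 fold change 0.22, adjusted p = 0.0597), nor Ywhaq (log2 fold change -0.19, adjusted p = 0.0852) passed. Without iADKO replicate 6, 5 regulators passed, beside 5737 of the 16879 genes tested in that fit.

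Genes of the actin and serum response factor pathway, a second route by which tension reaches the nucleus, rose in part. Of 14 SRF and MRTF genes tested, 8 rose and 0 fell, beside 14.1% and 16.3% of all genes, with a median log2 fold change of 0.37. The list was chosen with earlier results of these data known. The other 6 did not pass, among them Myl9, Tpm1 and Tpm2. Their log2 fold changes were 0.62, 0.45 and 0.64 (adjusted p = 0.0928, 0.0567 and 0.0683). The lowest value among the 6 was that of Vcl, at -0.13. The cytoskeletal genes Flna, Actb, Zyx and Actg1 rose by 0.51 (adjusted p = 0.0014), 0.47 (adjusted p = 0.00124), 0.42 (adjusted p = 0.0016) and 0.37 (adjusted p = 0.00210), and in all 4 the genotypes were fully separated, as they were in 6.64% of all genes. Srf, the transcription factor itself, rose by 0.21 (adjusted p = 0.0218) and its coactivator Mrtfa by 0.32 (adjusted p = 0.0138). Cnn2 rose by 0.37 (adjusted p = 0.00592) and Actn1 by 0.25 (adjusted p = 0.0480). Macrophages and smooth muscle express several of these genes strongly. Beside the macrophage sums given above, the 8 mural and smooth muscle markers summed to 927 to 1627 CPM in fl/fl and 1081 to 2559 CPM in iADKO. These 8 hold the contractile genes Acta2, Tagln, Myh11 and Cnn1, which were kept apart from the SRF and MRTF list. Of the 8, 0 were higher and 1 was lower, with a median log2 fold change of 0.32. The part of either cell type in the rises of the SRF and MRTF genes was not tested. With the number series as a block, 5 of the 14 passed, beside 1986 of the 16753 genes tested. Actb and Actg1 resemble each other and processed copies, as Ywhaz resembles copies of its own. How reads were divided among them was not examined, so their counts are uncertain.

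**Figure D4:**
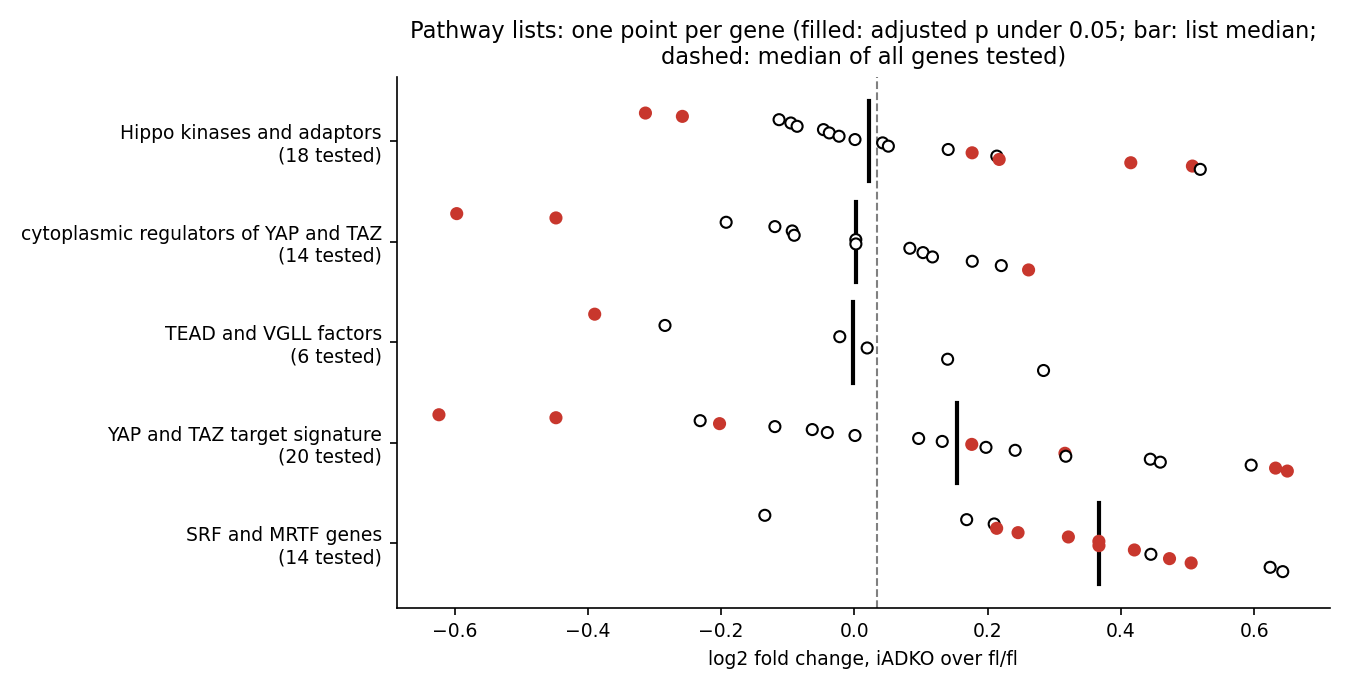
Log2 fold change of iADKO over fl/fl for each tested gene of 5 pathway lists, with genes past an adjusted p of 0.05 filled, a black bar at the median of each list and a dashed line at the median of all genes tested. The height of a point within its list carries no value. The SRF and MRTF genes lie mostly to the right, with a median of 0.37, while the other lists straddle the dashed line.

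The genes whose levels followed each listed gene most closely were found by the same r of residuals over the 13 libraries. For Amotl2 they were Tns2 (r = 0.96), Rab12 (0.93) and Jup (0.93), all 3 of which fell. Of all genes, 16.3% fell and 14.1% rose. For Axl they were Reps2 (0.94), Olfml2b (0.92) and Nav1 (0.91), of which Reps2 rose. For Tead1 they were Kcna5, Snrk and Dcun1d3 (0.90, 0.90 and 0.89), of which Snrk fell. Ccn1 was followed by Lyrm9 (0.96), Vegfc (0.85) and Ighv9-2 (0.83), and Ccn2 by Cebpb (0.86) and Gadd45g (0.82), of which Gadd45g rose. Yap1 was followed by Pptc7, Tubgcp5 and Dcun1d2 (0.90, 0.89 and 0.86), of which Dcun1d2 fell. Wwtr1 was followed by Napg, Arfgef2 and Clec16a (0.92, 0.91 and 0.91), of which Clec16a fell. Lats2 was followed by Gtf3c4, Tmem127 and Myo9a (0.92, 0.91 and 0.89). Ajuba was followed by Celf2, 1700008J07Rik and Slc4a7 (0.90 each), of which Celf2 and 1700008J07Rik fell. These are among the 3 highest of a search through all genes at that level over 13 points, and high values arise in such a search without any relation.

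**Figure D5:**
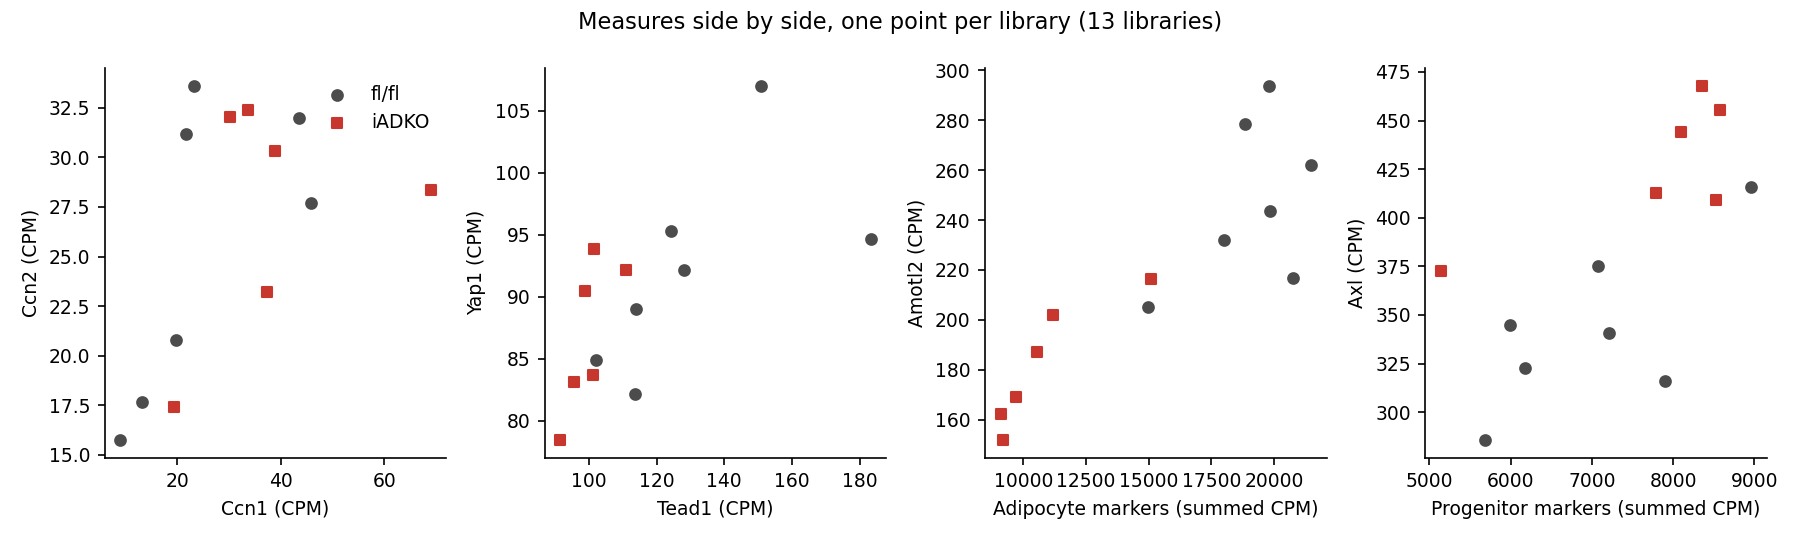
Levels in the 13 libraries (CPM), 1 point per library with fl/fl as grey circles and iADKO as red squares, for Ccn2 against Ccn1, Yap1 against Tead1, Amotl2 against summed adipocyte markers and Axl against summed adipose progenitor markers. The axes do not start at 0. In the Amotl2 panel the 5 iADKO libraries other than replicate 6 lie lowest on both axes, and fl/fl replicate 5 and iADKO replicate 6 lie close together. Axl is lowest in the fl/fl library with the lowest fl/fl progenitor sum. The lowest progenitor sum of all 13 is that of iADKO replicate 6, whose Axl is the lowest of iADKO and lies above 5 fl/fl libraries.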

How the data were processed

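Whole pmWAT of 13 female mice was profiled by bulk RNA-Seq, with genotype and replicate number read from the sample titles, and all libraries carry the same batch label. The authors deposited unnormalized read counts for each gene and log2 values that DESeq2's regularized log (rlog) makes from them. Strand-specific libraries were aligned with STAR 2.7.11a to mm39 after FastQC 0.12.1, per the labels. The counting tool and its strand setting are not given in the sources used here. Antisense transcripts overlap exons of Yap1, Ccn1, Ccn2 and Ankrd1 and held 0.168%, 5.70%, 4.28% and 3.64% as many counts as these genes. Lats2 shares exons with other annotated genes that were not analysed here.

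In R 4.3.3, genes were filtered with filterByExpr, and genotypes were compared by the robust quasi-likelihood test of edgeR 4.0.16 on TMM-normalized counts with no covariate. P-values were adjusted by Benjamini-Hochberg over the 16753 genes tested, with a threshold of 0.05. Standard errors and 95% intervals come from the same fit, and log2 CPM used a prior count of 2. The labels do not state how far tamoxifen cohorts or litters were shared, so p-values measure the spread between these mice. Copies of a library were looked for by chi-square per degree of freedom between same-genotype libraries, which ran from 8.16 to 88.8, above counting error.

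The listed genes, pathway lists and marker lists were chosen with earlier results of these data known. The genes named are the 10 listed, Lmna, in each pathway list the 4 other genes with the smallest p, and for each listed gene the 3 tested genes with the highest r whose mean log2 CPM reached 1. Wwc2, Stk4, Dock5, Cnn2, Mrtfa, Srf, Actn1, Vcl, Ptpn14, Myl9, Tpm1, Tpm2, Amot, Acta2, Tagln, Myh11 and Cnn1 were named after the results were seen. Of 33618 identifiers, 33184 were found in GENCODE vM39, and lengths, starts and genome sequence are of GRCm39. Some results of the lists, the windows and the search by r are not reported here. RefSeq windows were used only for the second motif count. The alternatives tried were the DESeq2 1.42.0 Wald test, edgeR with the size factors of DESeq2, no filter, at least 10 counts in every library, blocks for the replicate number or the library number series, limma 3.58.1 on the rlog values, and each library left out in turn.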

Additional observations from a re-analysis of the deposited data

How the results depend on the processing

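Tead1 and Amotl2 passed in all 20 alternatives (adjusted p 0.00475 to 0.0493 and 0.000201 to 0.0426), and Axl in 19 of 20. With the library number series as a block, which sets aside series of 1 genotype, the calls dropped from 5104 to 1986 genes, with 2 Hippo kinases and adaptors, 2 signature genes and 5 SRF and MRTF genes, and Axl missed the threshold (0.28, adjusted p = 0.117). With at least 10 counts in every library, 5064 of 14939 genes passed. In that fit 2 TEAD and VGLL factors passed, as did Ajuba (0.18, adjusted p = 0.0467). The log2 fold change of Wwtr1, near 0, turned to 0.0070 under the series block, and that of Lats2 to -0.014 under DESeq2's size factors and its Wald test, -0.012 with no filter, -0.023 under the replicate block without fl/fl replicate 7 (-0.016 without that library alone), -0.025 under the series block and -0.017 by limma on rlog values. Within the 2 series with both genotypes, Lats2 was at -0.27 and 0.17, Wwtr1 at 0.09 in the first, Amotl2 at -0.36 and -0.56 and Tead1 at -0.20 and -0.51. Leaving out each library gave 3998 to 6604 called genes, 3 to 4 listed genes, 4 to 8 Hippo kinases and adaptors, 3 to 5 cytoplasmic regulators, 1 to 3 TEAD and VGLL factors, 5 to 8 signature genes and 6 to 11 SRF and MRTF genes, with Ccn1 from 0.34 to 0.81, Ccn2 from 0.0070 to 0.20, Yap1 from -0.11 to -0.04, Wwtr1 from -0.025 to 0.021, Lats2 from -0.038 to 0.050, Ajuba from 0.14 to 0.23 and Axl from 0.28 to 0.37. The cause of these shifts was not tested. The labels do not say that a replicate number marks shared mice or days, and 3 of 6 same-number pairs had a residual correlation over 0.1 (mean 0.107, against -0.020 for other numbers), with 2 of 6 iADKO libraries correlating best with their own number, so the numbers were not taken as pairs. Blocking on the replicate number, with fl/fl replicate 7 left out, 4833 genes were called (5066 without that library and without the block), Tead1, Amotl2 and Axl still passed (adjusted p 0.0213, 0.00429 and 0.0281), and no other listed gene did. Low counts kept Ankrd1 from being tested in the main fit, and the spread between mice limits Ccn1 and Ccn2.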
